A study of Xenopus laevis with 28 samples.

Results

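The genes described here encode the ligands, receptors and intracellular Smad proteins of BMP and TGF-beta signalling in the frog Xenopus laevis. They were taken by name: every gene model whose symbol begins with bmp, tgfb or smad and a digit, or with bmpr, tgfbr, acvr or inhb. That gave 77 of the 45831 models in the table, and 73 of them passed the filter on low values and were tested. By role they are 19 BMP ligands, 4 TGF-beta ligands, 8 inhibin beta chains, 14 type I receptors, 8 type II receptors, 2 copies of a co-receptor, 18 Smads and 4 models that share only the start of the symbol. The species is an allotetraploid, so most genes are present as an L and an S copy (homeologs), named by the ending of the symbol.

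RNA was measured by poly-A, non-stranded RNA sequencing of whole tissue from frogs of the J strain, whose age the labels do not give. The groups were 14 tissues (brain, eye, heart, intestine, kidney, liver, lung, muscle, ovary, pancreas, skin, spleen, stomach and testis), with 2 libraries each. For 13 tissues the donors were a pair of female frogs, 1 for the Taira dataset and 1 for the Ueno dataset. The testis came from a pair of male siblings of those females. The 2 libraries of a tissue are thus separate animals, and frog, clutch and dataset cannot be told apart. Levels are given as transcripts per 1000000 (TPM), a unit scaled for gene length, so that genes can be set against each other.

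Ligands of this family bind a complex of type I and type II receptor kinases on the cell surface. The type I receptor phosphorylates receptor Smads, Smad1 and Smad9 for BMPs and Smad2 and Smad3 for TGF-beta and activins, which join a common Smad4 and enter the nucleus. Smad6 and Smad7 are inhibitory, and their genes are targets of the pathway in vertebrates, so that signalling limits itself. In the frog embryo the pathway is best known for setting the dorsal-ventral axis and inducing mesoderm, and in adult vertebrates for roles in the gonads, blood vessels, bone, iron balance and wound repair.

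Between 24533 and 34388 models per library were listed above 0. Summed over the pathway genes, the level ranged from 51.28 to 1527.28 TPM per library (median 549.41), and 12 to 61 of them reached 1 TPM. Of 67 models of organ markers, 60 were highest in both libraries of their own tissue. Pancreas enzymes took up much of the pancreas libraries, where 2 marker models summed to 178198 and 156212 TPM of a fixed total. With another scaling, by the median of ratios between libraries, the median difference of all genes in pancreas moved from -1.33 to -0.19, in brain from 0.72 to -0.09 and in liver from -0.67 to -0.21 on the log2(TPM + 1) scale. The scaling is named below where it ends a call. In whole tissue, fewer cells of a type and less RNA per cell cannot be told apart.

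Few of the pathway genes reached 1 TPM in every tissue. Of the 77, 5 reached 1 TPM in both libraries of all 14 tissues: acvr1.S, smad1.L, smad4.1.L, smad4.1.S and smad4.2.S. That is 6.49% of them, against 15.2% of all models. Another 5 reached 1 TPM in no tissue, again 6.49%, against 30.2% of all models. The comparison for all 14 tissues depended on the level asked for. At 0.5 TPM 20 of the 77 reached it in all tissues, a larger share than the 21.9% of all models. Breadth differed by role. The median number of tissues was 14 for the common Smads, 13 for the BMP receptor Smads and the inhibitory Smads, 12 for the TGF-beta receptor Smads and 10 for the type II receptors. It was 7.5 for the type I receptors, 6.5 for the TGF-beta ligands, 3 for the BMP ligands and 2 for the inhibin beta chains.

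The 4 models that were not tested were the S copies bmp15.S, listed at 0 in all libraries, bmp5.S (at most 0.65 TPM), smad6.2.S (at most 0.15 TPM) and inhba.S (at most 1.07 TPM). The tissue of the highest mean was compared with the whole table. Of the 73 tested, 17 peaked in ovary, 12 in lung and 9 each in heart, spleen and testis. Lung held 16.4% of these peaks against 3.66% for all models and heart 12.3% against 3.55%, whereas brain held 2.74% against 24.1%. Ovary (23.3% against 20.3%), spleen (12.3% against 10.8%) and testis (12.3% against 11.2%) were near the whole table. For 12 of the 73, or 16.4%, 1 tissue held at least 50% of the sum of the tissue means, against 31.1% of all models.

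**Figure D1:**
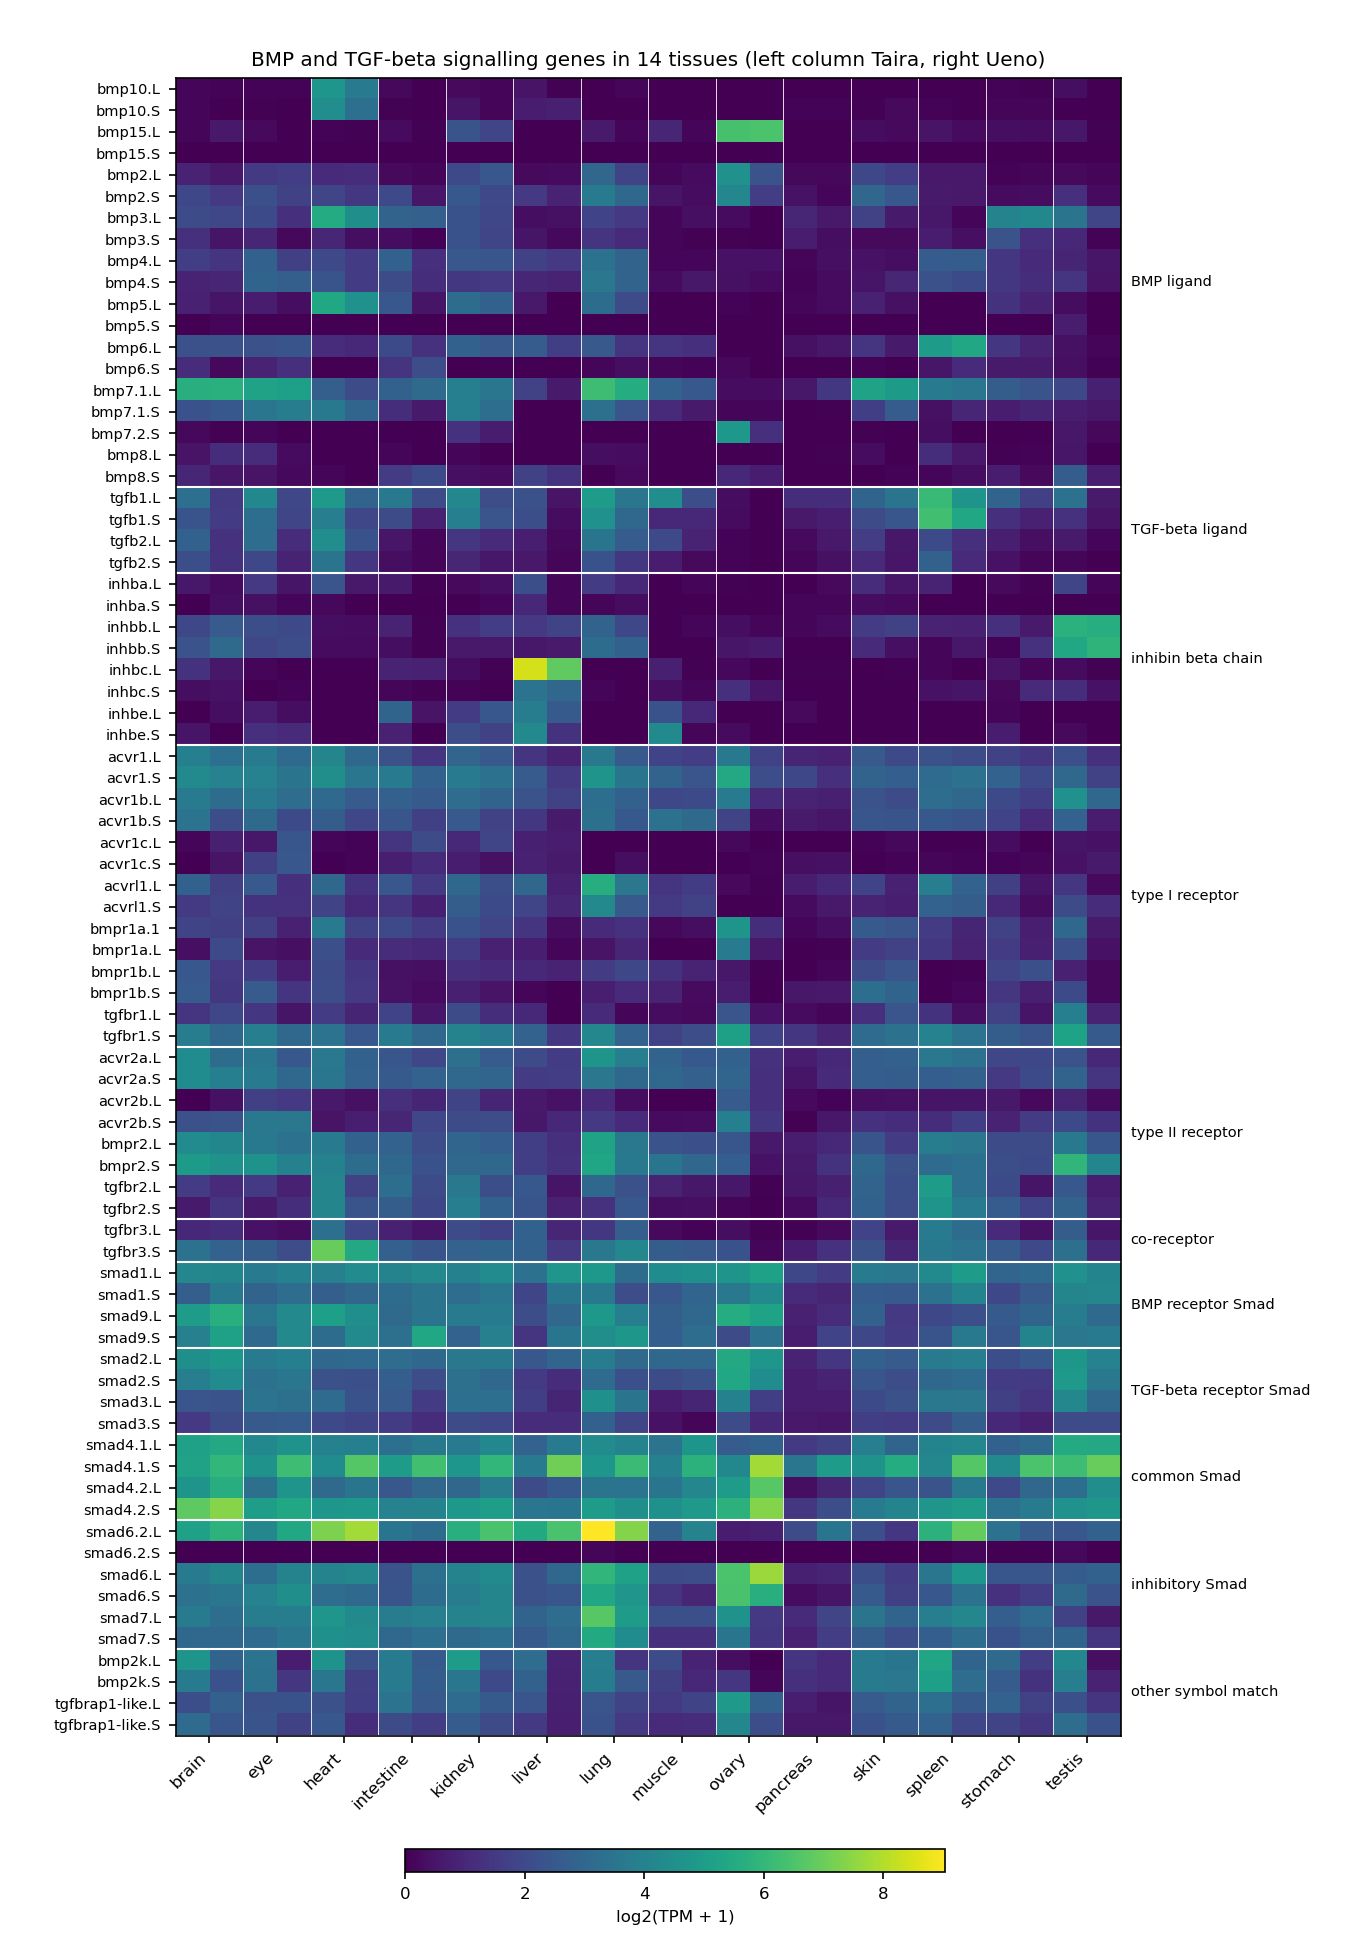
Level of the 77 BMP and TGF-beta pathway genes (grouped by role from top to bottom) in the 14 tissues, with the Taira library on the left and the Ueno library on the right of each tissue, as colour on the log2(TPM + 1) scale. Common and inhibitory Smads are bright in most tissues, apart from smad6.2.S, while ligands and inhibin beta chains are bright in 1 or a few, such as inhbc.L in liver at 347.66 and 112.27 TPM.

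The mean of a tissue was compared by limma with that of the other 13 on the log2(TPM + 1) scale. A gene was called higher or lower at a Benjamini-Hochberg adjusted p under 0.05 over all models and a difference of at least 1 on the log2 scale. By this rule 62 pathway genes were higher in at least 1 tissue, 51 were lower in at least 1, and 7 were neither. The share of all models called in at least 1 tissue was not counted, so these totals have no background. In brain alone 35.5% of all models were higher, and in pancreas alone 52.6% were lower. Of the higher calls, those in lung stood furthest from the background: 23 of 73 were higher there, where 8.4% of all models were, and the median difference was 0.74 against -0.08 for all models. With median-of-ratios scaling 21 of those 23 remained, without inhbb.L and smad9.L. The lung count rested on the Taira library, however. Without it 7 were called (3.74% of all models), namely bmp4.L, bmp4.S, bmp7.1.L, inhbb.S, smad6.2.L, smad6.L and smad6.S, and without the Ueno library 23 were.

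Heart had 13 higher, where 7.96% of all models were, and the 13 remained with the other scaling. Without the Taira heart 7 were called, bmp10.L, bmp10.S, bmp3.L, bmp5.L, bmp7.1.S, smad6.2.L and tgfbr3.S.  Lower in heart were both copies of inhbb, with 6.4% of all models lower, and with the other scaling only inhbb.L remained. Without either heart library none was lower.

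In ovary 17 pathway genes were higher (23.6% of all models) and 21 lower (19.4%). The other scaling gave 12 higher (17.3% of all models) and 27 lower (23.5%). Without the Taira ovary 11 were higher, and without the Ueno ovary 10 were lower. In testis 10 were higher (18.8%) and 6 lower (7.58%), which became 5 (13.6%) and 12 (12.7%) with the other scaling. Without the Taira testis 3 were higher, and without the Ueno testis 3 were lower. Liver had 6 higher (4.23%) and 11 lower (19.6%), or 9 (8.48%) and 3 (7.84%) with the other scaling. Fewer were lower without either liver library. Spleen had 10 higher (15.7%) and 5 lower (6.95%), or 6 (9.82%) and 6 (9.19%) with the other scaling. Fewer were lower without the Taira spleen, and of the higher calls bmp6.L, smad6.2.L and tgfb1.S remained.

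In brain 14 pathway genes were higher, or 19.2% of those tested, while 35.5% of all models were, and none was lower by limma (3.89% of all models), with 1 below an unadjusted p of 0.05. The other scaling left 2 higher (17.7% of all models), bmp7.1.L and smad4.2.S, and 1 lower (9.73%), tgfbr2.S. Without the Taira brain 9 were higher. Eye had 8 higher (17.7% of all models) and none lower by limma (1.85%), with 4 at an unadjusted p under 0.05. With the other scaling eye had 5 higher (13.1%). Kidney had 12 higher (13.9%) and none lower by limma (1.08%), with 3 at an unadjusted p under 0.05. Of the kidney calls bmp5.L and bmp7.1.S remained with the other scaling, and leaving out the Taira or the Ueno kidney left 6 or 5.

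Intestine had 4 higher (10.7%) and 2 lower (5.31%), and none was lower without the Ueno intestine. Skin had 3 higher (7.88%) and 4 lower (8.07%), which with the frog as a block became 5 and 7, and 1 was lower without the Ueno skin. Muscle had 2 higher (5.58%) and 13 lower (24.6%). With the other scaling muscle had 6 (11.3% of all models) and 10 (12.6%), and with the frog as a block 20 were lower (30.5%). Without the Taira muscle 6 were lower and none was higher, without the Ueno muscle 8 were lower, and without the Ueno ovary 20 were. Stomach had 3 higher (3.88%) and 9 lower (10.4%), or 3 (6.43%) and 1 (3.37%) with the other scaling. Without the Taira stomach 1 was higher and none was lower, and without the Ueno stomach 3 were lower.

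Pancreas had none higher by limma (0.825% of all models), with none at an unadjusted p under 0.05, and 43 lower, where 52.6% of all models were lower. With the other scaling 2 were higher (4.54% of all models), acvr1c.S and bmp3.S, and 2 lower (3.87%), bmp7.1.S and smad6.S. Of the 43, 9 turned to a difference above 0, so nearly all pancreas calls depended on the scaling. Without the Taira pancreas 27 were lower. Lung had none lower by limma (4.51% of all models), with 4 at an unadjusted p under 0.05.

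For 22 pathway genes both libraries of 1 tissue lay above every library of the other tissues. They were 5 in heart (bmp10.L, bmp10.S, bmp3.L, bmp5.L and tgfbr3.S), where 1.21% of all models had this pattern, 4 in ovary (7.7%), 3 in testis (3.98%), and 2 each in liver (0.954%), lung (1.09%) and spleen (4.52%). Brain (13.4%), eye (2.52%), intestine (2.7%) and skin (2.25%) had 1 each. Kidney (2.28% of all models), muscle (1.39%), stomach (0.579%) and pancreas (0.321%) had none. A model can have this pattern in only 1 tissue, so these shares of all models add up to the background of the 22. The 22 of the 73 tested made up a smaller share than that sum, so the pattern was not more frequent in pathway genes than in all models.

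**Figure D2:**
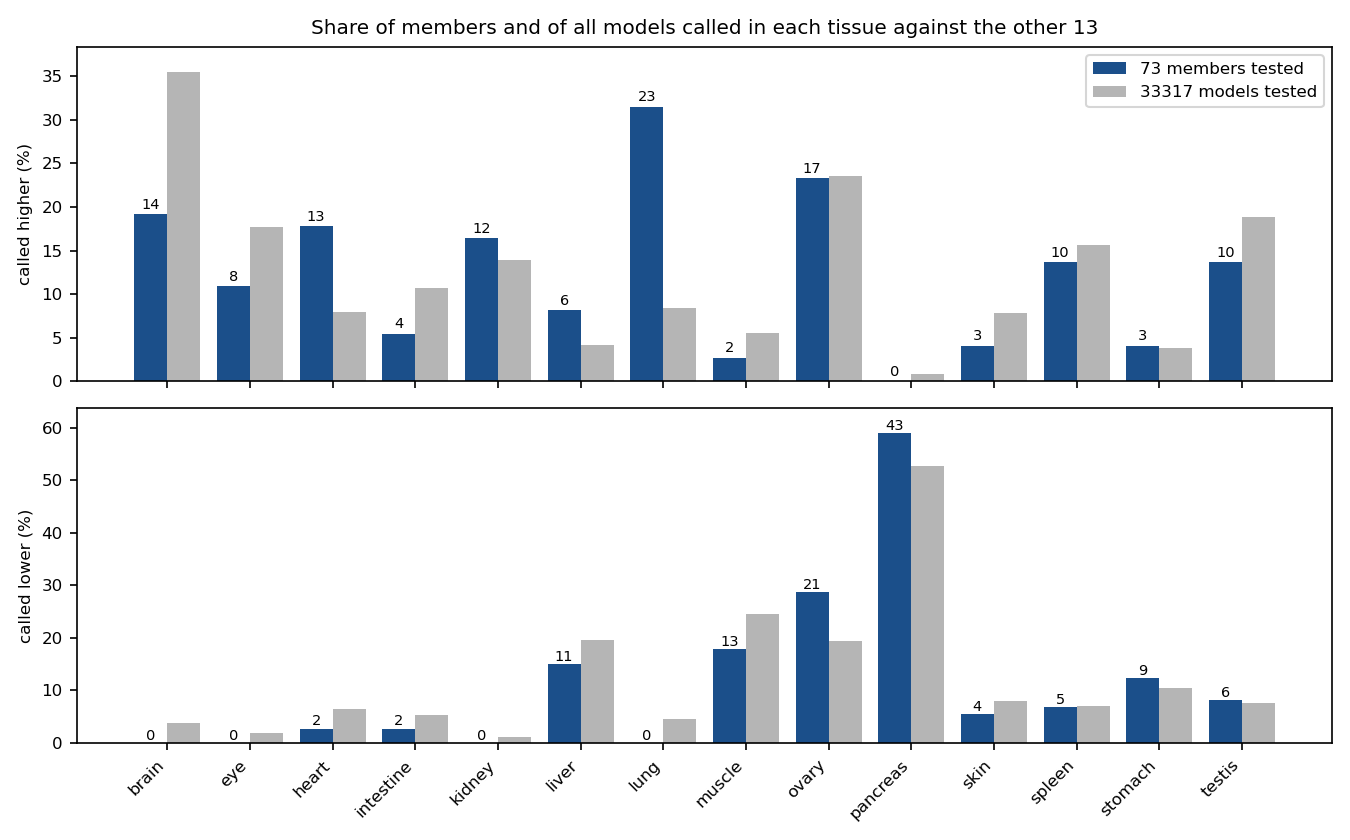
Percentage of the 73 tested pathway genes (blue bars, number above) and of all 33317 tested models (grey bars) called higher (top panel) and lower (bottom panel) in each tissue against the other 13. Lung, with 23 higher, rises above its grey bar at 8.4%, while brain, with 14, stays under its grey bar at 35.5%.

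Among the BMP ligands, bmp10.L had the largest share of its tissue means in 1 tissue, 95.8% in heart. In the mouse Bmp10 is a ligand of the heart. Here bmp10.L had 26.04 TPM in the Taira heart and 11.73 TPM in the Ueno heart, and between 0 and 0.39 TPM (median 0.015) in the 26 other libraries. Both hearts lay far above all other libraries, a difference of 4.13 ± 0.18 (SE, log2 scale; adjusted p = 1.13e-11). The S copy, bmp10.S, had 20.57 and 8.73 TPM in heart and at most 0.75 TPM elsewhere (3.73 ± 0.17, adjusted p = 4.24e-11). Both copies passed the filter on low values only through the hearts, so these limma p-values add no support beyond the levels.

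The heart was also the tissue with the highest level of bmp5.L and bmp3.L. Bmp5 belongs to the same ligand subgroup as Bmp6 and Bmp7, and Bmp3 is known in mammals as a ligand that opposes other BMPs. For bmp5.L the hearts had 41.07 and 22.51 TPM, and the other libraries 0 to 8.23 TPM with a median of 0.365 (4.15 ± 0.36, adjusted p = 1.79e-07). The next tissue was kidney with 8.23 and 6.02 TPM. For bmp3.L the hearts had 46.45 and 21.37 TPM and the other libraries 0 to 17.6 TPM (3.48 ± 0.36, adjusted p = 1.59e-06). Here the neighbour in order was stomach, at 15.3 and 17.6 TPM, also higher than the mean of the rest by 2.50 ± 0.36 and below both hearts. In spleen bmp3.L was lower, at 0.49 and 0.13 TPM (-1.53 ± 0.36, adjusted p = 0.00336), a call that was lost without the Ueno spleen (adjusted p = 0.0821).

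The most abundant BMP ligand was bmp7.1.L, with a mean of 16.3 TPM over the tissues. Bmp7 acts in kidney, eye and skeletal development in mammals. It was highest in lung, at 74.11 and 47.13 TPM (3.01 ± 0.32, adjusted p = 4.96e-06), then brain, at 51.34 and 51.78 TPM (2.80 ± 0.32), eye, at 35.89 and 33.22 TPM (2.19 ± 0.32), and skin, at 35.45 and 29.23 TPM (2.08 ± 0.32). The lung and brain libraries overlapped, and so did those of eye and skin. The next tissue, kidney, had 13.95 and 10.59 TPM. In liver it was lower, at 2.47 and 0.58 TPM (-2.04 ± 0.32, adjusted p = 0.000189), and in ovary both libraries had 0.23 TPM (-3.04 ± 0.32, adjusted p = 5.52e-07).

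The order of tissues was another for the S copy, bmp7.1.S, called higher in kidney (13.74 and 8.5 TPM), eye (10.66 and 12.85 TPM), heart (11.52 and 6.78 TPM) and lung (9.15 and 4.16 TPM). In the liver bmp7.1.S was listed at 0 in both libraries.

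Bmp15 is known in mammals as a growth factor made by the oocyte, and bmp15.L had 83.09 and 87.05 TPM in the ovaries. The 26 other libraries had 0 to 4.09 TPM with a median of 0.165, so that the groups did not overlap (6.04 ± 0.20, adjusted p = 2.2e-13). The highest of the others were the kidneys, at 4.09 and 2.69 TPM, which were called higher as well (1.39 ± 0.20, adjusted p = 6.14e-05) but not with the other scaling (adjusted p = 0.059). The sum of the ovary marker models in those kidney libraries was 140.6 and 239.8 TPM, against a median of 1.195 TPM over all libraries outside ovary, and the part of this in the kidney value was not tested.

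Other BMPs in ovary differed between its libraries. Bmp2 and Bmp4 are closely related ligands of embryonic patterning and bone, and bmp2.L had 22.79 TPM in the Taira ovary and 3.93 TPM in the Ueno ovary (2.54 ± 0.36, adjusted p = 1.33e-05). The Ueno ovary was within the range of the other libraries, 0.06 to 6.89 TPM. The same split was seen for bmp7.2.S, a second BMP7 gene, at 27.44 and 1.32 TPM against at most 1.44 TPM elsewhere (2.88 ± 0.47, adjusted p = 6.98e-05).

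In contrast 7 of 17 BMP ligand models were lower in ovary, where 19.4% of all models were, and bmp6.L was listed at 0 in both ovaries. Bmp6 is known in mammals as the ligand that adjusts iron uptake. The spleens had 31 and 41.94 TPM of bmp6.L, above all other libraries, which had 0 to 6.01 TPM with a median of 1.625 (3.81 ± 0.30, adjusted p = 4.67e-08). Its S copy was low throughout. In intestine bmp6.S had 1.63 and 3.35 TPM, against at most 1.33 TPM elsewhere (1.46 ± 0.20, adjusted p = 2.66e-05), and with a pseudocount of 5 the difference was 0.50.

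Lung was the tissue with the highest level of both copies of bmp4. For bmp4.L the lungs had 9.36 and 6.27 TPM, just above the other libraries, which reached 6.01 TPM (1.77 ± 0.31, adjusted p = 0.000641). For bmp4.S they had 10.84 and 6.35 TPM (2.01 ± 0.27, adjusted p = 6.09e-05), and the eyes, at 6.54 and 5.6 TPM, overlapped with them (1.57 ± 0.27). Also higher in lung were bmp2.L, bmp2.S at 12.67 and 7.17 TPM, bmp5.L and both copies of bmp7.1. Thus 7 of 17 BMP ligand models were called there, where 8.4% of all models were.

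Markers of several cell types were high in lung too. The 10 endothelium marker models summed to 1058.57 TPM in the Taira lung and 262.26 TPM in the Ueno lung, against 10.98 to 426.71 TPM (median 74.145) elsewhere, and none was at 0 in both lungs. The 10 fibroblast and matrix models summed to 2404.4 and 2168.54 TPM, against 18.22 to 2786.49 TPM elsewhere. The 7 smooth muscle models summed to 2071 and 4858 TPM, overlapping with the stomachs at 4001 and 2933 TPM. The 5 erythrocyte models summed to 48469 and 34806 TPM, with 47845 and 47667 TPM in the livers. The part of these cells in the lung values was not tested.

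**Figure D3:**
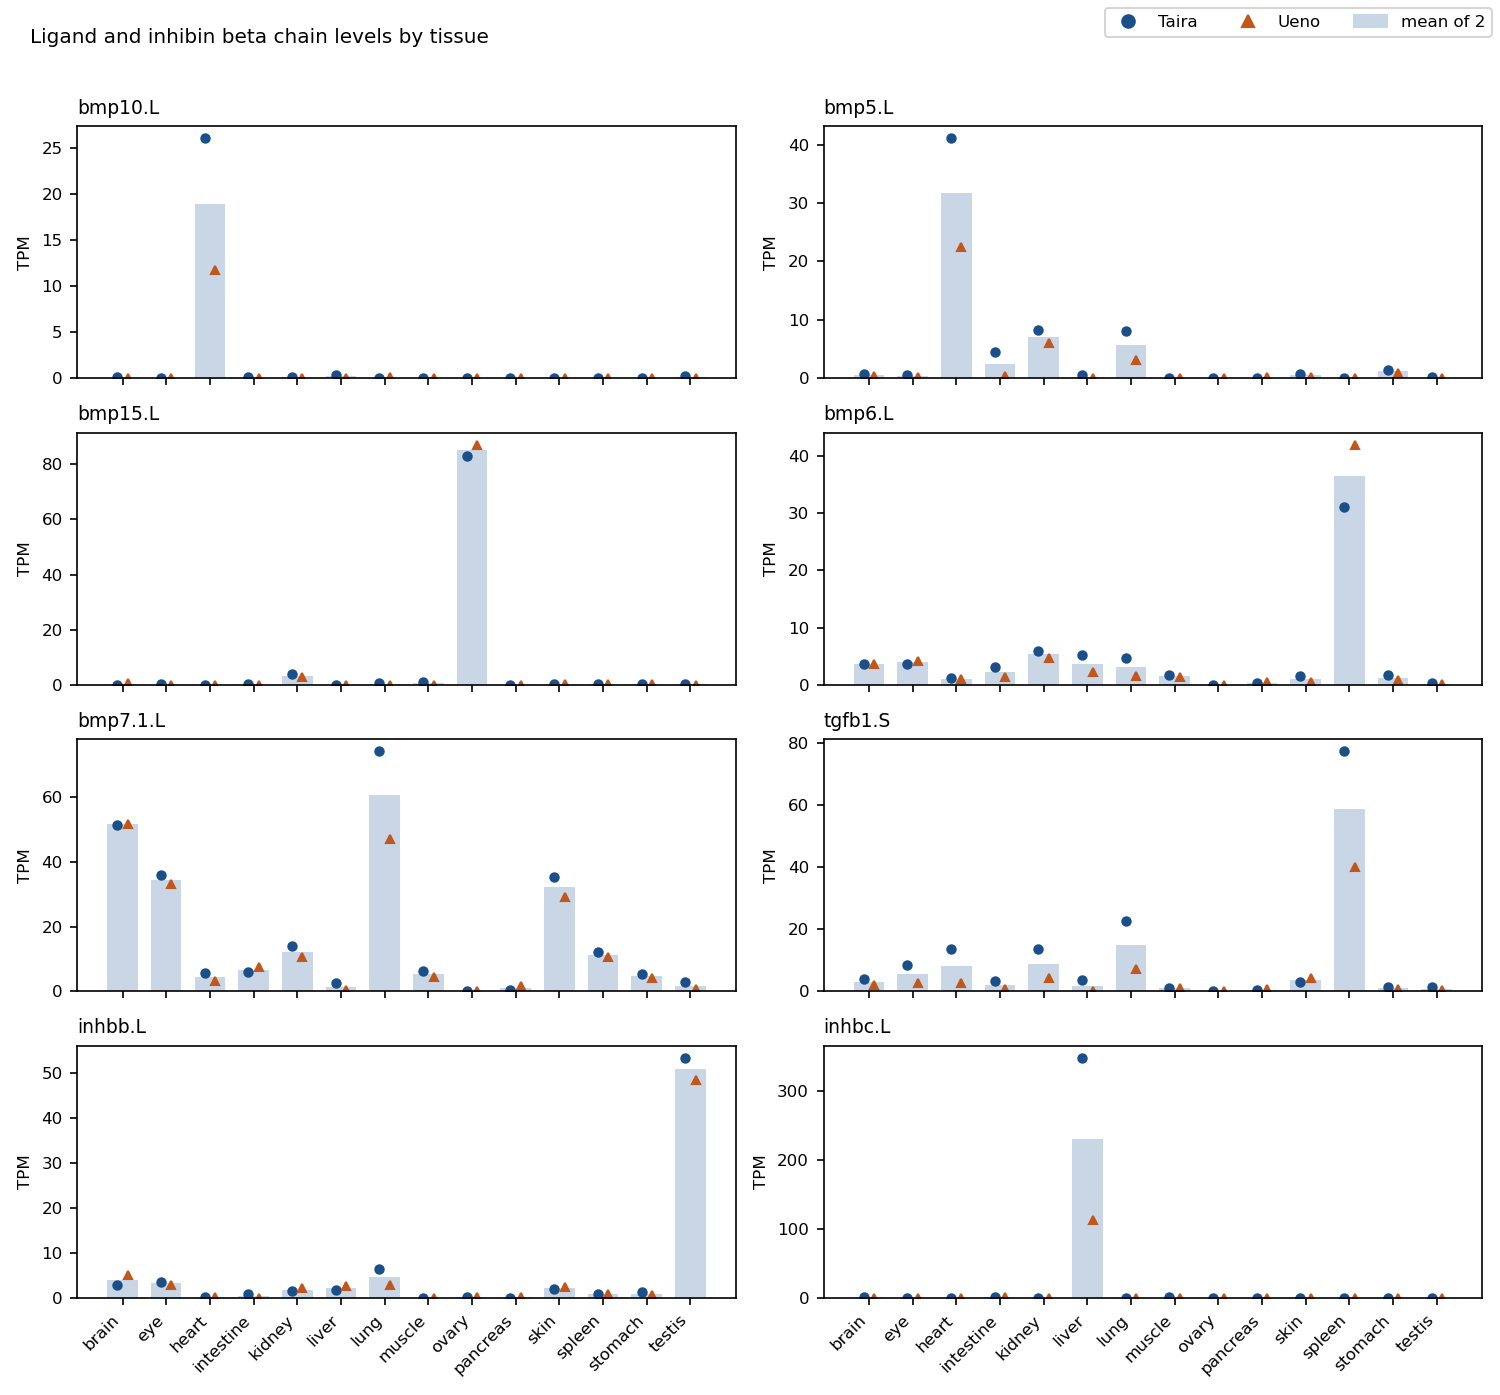
TPM of 8 ligand and inhibin beta chain genes by tissue on a linear axis, with the Taira library as a circle, the Ueno library as a triangle and a bar at the mean of the 2. Most have their highest points in 1 tissue, such as bmp10.L in heart at 26.04 and 11.73 TPM and bmp6.L in spleen at 31 and 41.94 TPM.

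Of the TGF-beta ligands, tgfb1 was highest in spleen. Tgfb1 restrains immune cells in mammals. The S copy, tgfb1.S, had 77.43 TPM in the Taira spleen and 40.12 TPM in the Ueno spleen, above all other libraries, which had 0 to 22.88 TPM with a median of 2.385 (4.05 ± 0.56, adjusted p = 3.11e-05). The L copy, tgfb1.L, had 66.18 and 24.4 TPM (2.82 ± 0.82, adjusted p = 0.0139), and there the Ueno spleen lay below the Taira lung at 30.13 TPM. In the ovaries tgfb1.L had 0.24 and 0 TPM and tgfb1.S had 0.21 and 0 TPM, and both were lower.

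The other gene, tgfb2, known for its part in heart and eye development in the mouse, had its highest mean in heart. The Taira heart had 20.37 TPM of tgfb2.L and the Ueno heart 3.87 TPM (2.198 ± 0.53, adjusted p = 0.00615), the latter below the Taira lung at 10.27 TPM. For tgfb2.S the values were 10.15 and 1.67 TPM (1.66 ± 0.43, adjusted p = 0.0112), and the 2 hearts lay on both sides of the highest other library, at 6.0 TPM. Neither copy of tgfb2 was among the heart calls that remained without the Taira heart.

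Inhibin beta chains pair with each other to form activins, or with the alpha chain to form inhibins. The largest tissue difference of the 73 tested was that of inhbc.L, a chain known from mammalian liver. The livers had 347.66 and 112.27 TPM, and the other libraries 0 to 1.5 TPM with a median of 0.05 (7.39 ± 0.28, adjusted p = 1.06e-12). Liver thus held 98.8% of the sum of its tissue means. The S copy, inhbc.S, had 9.81 and 6.93 TPM in liver and at most 1.33 TPM elsewhere (2.92 ± 0.20, adjusted p = 7.58e-09).

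The chain inhbe is another that mammals make in liver. Its L copy, inhbe.L, had 12.91 and 4.83 TPM there (2.69 ± 0.41, adjusted p = 0.000144), with up to 6.51 TPM elsewhere, so that the groups overlapped. For inhbe.S the livers had 17.89 and 1.49 TPM (2.27 ± 0.66, adjusted p = 0.0142), and the muscles 18.27 and 0.13 TPM. In liver and muscle alike the Taira library was the high one.

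The chain of activin B and inhibin B, inhbb, was highest in testis. For inhbb.L the testes had 53.39 and 48.43 TPM and the other libraries 0 to 6.39 TPM with a median of 1.095 (4.57 ± 0.26, adjusted p = 2.39e-10). For inhbb.S they had 41.16 and 57.25 TPM against at most 8.23 TPM elsewhere (4.72 ± 0.27, adjusted p = 2.89e-10). Both copies were clear of all other tissues in both males. Lung came next, at 6.39 and 2.89 TPM for inhbb.L and 8.23 and 6.07 TPM for inhbb.S.

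In heart inhbb.L was lower, at 0.26 and 0.23 TPM (-1.23 ± 0.26, adjusted p = 0.00251), a call that was lost without either heart library (adjusted p = 0.0526 and 0.0505). With the gonads left out of the mean of the rest the difference was -0.97. In intestine inhbb.S was lower, at 0.27 and 0.05 TPM (-1.12 ± 0.27, adjusted p = 0.00578), and not with the other scaling (adjusted p = 0.0586) or without the Ueno intestine (adjusted p = 0.118). The remaining chain, inhba.L, the subunit of activin A, was called in no tissue and reached at most 4.22 TPM, in the Taira heart.

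Of the type I receptors acvr1.S had the highest mean, 10.1 TPM. Acvr1 is a receptor for BMPs. Its S copy was detected at 1 TPM or more in all tissues, from a mean of 2.12 TPM in pancreas to 23.2 TPM in ovary. The ovaries differed, with 42.9 TPM in the Taira frog and 3.43 TPM in the other, and acvr1.S was not called there. The next were tgfbr1.S, the signalling TGF-beta receptor, at a mean of 9.73 TPM, and acvr1b.L, an activin receptor, at 6.36 TPM.

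The gonad levels of tgfbr1.S also differed by animal, with 37.13 and 4.87 TPM in testis and 33.94 and 2.52 TPM in ovary. For acvr1b.L the testes had 22.93 and 7.07 TPM (1.27 ± 0.45, adjusted p = 0.0389), a call not made with the other scaling. Summed over the 14 type I receptor models, the Taira ovary had 145.7 TPM and the Ueno ovary 12.03 TPM, and the testes had 111.2 and 20.7 TPM. No other tissue split as far, lung being next in size at 142.1 and 54.4 TPM.

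The type I receptor of blood vessels in mammals, acvrl1, had its highest level in lung. For acvrl1.L the Taira lung had 47.94 TPM and the Ueno lung 10.99 TPM (2.92 ± 0.60, adjusted p = 0.00228), the latter within the range of the other libraries, 0.03 to 13.72 TPM. For acvrl1.S the lungs had 17.83 and 4.8 TPM (2.06 ± 0.37, adjusted p = 0.000719), and the Ueno lung again lay under the highest other library, at 6.13 TPM in spleen. Neither copy was called without the Taira lung, which also had the highest sum of endothelium markers, 1058.57 TPM. In the ovaries acvrl1.L had 0.16 and 0.03 TPM and acvrl1.S had 0.02 TPM in both, and both were lower.

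Both copies of bmpr1b, a BMP receptor known for its part in cartilage and limb growth, were highest in skin. The skins had 8.57 and 6.52 TPM of bmpr1b.S, above the other libraries, which reached 5.03 TPM (2.18 ± 0.38, adjusted p = 0.000457). For bmpr1b.L they had 3.19 and 4.17 TPM (1.198 ± 0.27, adjusted p = 0.00321), overlapping with the highest other library at 4.53 TPM. Also called higher were bmpr1b.L in stomach, at 2.73 and 3.59 TPM (1.02 ± 0.27, adjusted p = 0.0117), and bmpr1b.S in brain, at 5.0 and 1.78 TPM (1.05 ± 0.38, adjusted p = 0.0328), the latter not with the other scaling. Of the related bmpr1a, the models bmpr1a.1 and bmpr1a.L were highest in the Taira ovary, at 24.56 and 12.27 TPM, with 1.29 and 0.52 TPM in the Ueno ovary, and neither was called in any tissue. Whether reads were divided between these models in counting was not tested.

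The eyes had 2.27 and 4.52 TPM of acvr1c.S, an activin and Nodal receptor, against at most 1.14 TPM elsewhere (1.79 ± 0.16, adjusted p = 6.9e-08), a low level in every tissue. In muscle acvr1b.S was higher, at 9.48 and 7.68 TPM (1.29 ± 0.49, adjusted p = 0.0453), and overlapped with other tissues, which reached 9.9 TPM.

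Among the type II receptors, bmpr2.S and bmpr2.L had the highest means, 11.8 and 7.60 TPM, followed by acvr2a.L at 6.72 TPM. Bmpr2 is the receptor mutated in heritable pulmonary arterial hypertension in humans. The testes had 59.94 and 16.51 TPM of bmpr2.S (2.096 ± 0.50, adjusted p = 0.00359) and the lungs 39.86 and 11.55 TPM (1.53 ± 0.50, adjusted p = 0.0426). For bmpr2.L the lungs had 35.54 and 11.35 TPM (1.86 ± 0.42, adjusted p = 0.00458). In all of these the Taira library was the higher, and the Ueno libraries overlapped with other tissues.

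In brain acvr2a.S, a receptor for activins, had 20.23 and 13.86 TPM, above the other libraries, which reached 11.77 TPM (1.67 ± 0.38, adjusted p = 0.00156). With the other scaling the difference was 0.64 (adjusted p = 0.102), and without the Taira brain the adjusted p was 0.0571. The L copy, acvr2a.L, was highest in lung at 24.34 and 13.65 TPM (1.77 ± 0.41, adjusted p = 0.00552). The eyes had 11.26 and 11.07 TPM of acvr2b.S (2.26 ± 0.40, adjusted p = 0.000294), and only the Taira ovary, at 13.95 TPM, was above them.

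The TGF-beta receptor tgfbr2 was highest in spleen, as its ligand tgfb1 was. The spleens had 31.19 and 8.81 TPM of tgfbr2.L (2.44 ± 0.63, adjusted p = 0.00671) and 24.27 and 12.24 TPM of tgfbr2.S (2.51 ± 0.53, adjusted p = 0.00149). Other libraries reached 16.15 and 16.21 TPM, so that the Ueno spleen overlapped with them in both cases. Without the Taira spleen neither copy of tgfbr2 was called there, nor was tgfb1.L, while tgfb1.S was.

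The co-receptor tgfbr3, or betaglycan, presents TGF-beta2 and binds inhibin in mammals. Its S copy, tgfbr3.S, had 121.37 TPM in the Taira heart and 43.14 TPM in the Ueno heart, and 0.08 to 17.15 TPM (median 5.165) elsewhere. Both hearts lay above all other libraries (3.79 ± 0.55, adjusted p = 7.93e-05). The L copy, tgfbr3.L, was highest in spleen instead, at 12.03 and 8.15 TPM (2.31 ± 0.49, adjusted p = 0.00166), where the Ueno spleen overlapped with the Taira heart at 9.2 TPM.

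Of the BMP receptor Smads, smad1.L had a level in every tissue, from a mean of 2.44 TPM in pancreas to 29.6 TPM in ovary. The other gene, smad9, also called Smad8, varied more. The ovaries had 47.4 and 37.14 TPM of smad9.L (2.18 ± 0.34, adjusted p = 4.45e-05) and the hearts 33.61 and 21.39 TPM (1.50 ± 0.34, adjusted p = 0.00417). The brains, at 30.11 and 49.44 TPM, overlapped with the ovaries and were not called with the other scaling. For smad9.S the highest library was the Ueno intestine, at 40.96 TPM, with 9.19 TPM in the Taira intestine.

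Of the TGF-beta receptor Smads, both copies of smad2 were highest in ovary. The ovaries had 42.93 and 26.64 TPM of smad2.L, just above the highest other library, a brain at 26.54 TPM (1.90 ± 0.25, adjusted p = 7.3e-06). For smad2.S the ovaries had 40.79 and 20.05 TPM (2.31 ± 0.32, adjusted p = 9.98e-06) and the testes 28.17 and 11.22 TPM (1.61 ± 0.32, adjusted p = 0.000657). These groups overlapped. The other gene differed: smad3.L was highest in lung at 22.16 and 10.02 TPM (1.66 ± 0.44, adjusted p = 0.0124), and smad3.S in eye at 4.78 and 5.11 TPM (1.03 ± 0.27, adjusted p = 0.0085), a call not made with the other scaling.

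The common Smads had the largest mean summed level of the 4 Smad classes in 10 of 14 tissues. In the testes smad4.1.L had 45.22 and 42.7 TPM, above all others, which reached 42.25 TPM in brain (1.84 ± 0.30, adjusted p = 0.000111). The brains had 108.75 and 164.81 TPM of smad4.2.S (2.67 ± 0.30, adjusted p = 6.71e-07), overlapping with the Ueno ovary at 161.77 TPM. The ovaries had 30.92 and 101.28 TPM of smad4.2.L (2.74 ± 0.46, adjusted p = 9.63e-05), and the Ueno library was the high one for both.

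In pancreas smad4.2.S was lower, at 1.66 and 3.54 TPM (-3.01 ± 0.30, adjusted p = 5.59e-07), but with the other scaling the difference was -0.82 (adjusted p = 0.374). The copy smad4.1.S had the second highest mean of all pathway genes, 56.8 TPM, and is described with the frogs.

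The inhibitory Smads covered the widest range. The gene smad6.2.L, a second Smad6 gene, had the highest mean of all, 61.6 TPM. The Taira lung had 521.62 TPM and the Ueno lung 163.14 TPM (4.05 ± 0.47, adjusted p = 1.26e-05), and the hearts 149.27 and 216.91 TPM (3.30 ± 0.47, adjusted p = 7.59e-05), so that lung and heart overlapped. All other libraries had 0.67 to 118.76 TPM. The Ueno spleen was the highest of these, with 54.35 TPM in the Taira spleen (2.06 ± 0.47), a call not made with the other scaling (adjusted p = 0.081).

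At the other end smad6.2.L had 0.67 and 0.72 TPM in the ovaries (-3.96 ± 0.47, adjusted p = 2.28e-06) and 3.61 and 1.68 TPM in the skins (-2.83 ± 0.47, adjusted p = 0.000294). Ovary was below every other library. The first Smad6 gene differed from it in ovary. The ovaries had 88.4 and 205.15 TPM of smad6.L, above the highest other library, the Taira lung at 60.39 TPM (3.93 ± 0.36, adjusted p = 7.75e-08). For smad6.S they had 85.48 and 49.8 TPM, above the Taira lung at 41.96 TPM (3.30 ± 0.32, adjusted p = 1.93e-07). Both copies of smad6 were thus highest in the tissue where smad6.2.L was lowest.

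The lungs came next, with 60.39 and 35.23 TPM of smad6.L (2.28 ± 0.36, adjusted p = 0.000222) and 41.96 and 25.4 TPM of smad6.S (2.25 ± 0.32, adjusted p = 9.8e-05). In muscle smad6.S was lower, at 1.57 and 0.94 TPM (-1.97 ± 0.32, adjusted p = 0.000155). In stomach it had 1.42 and 2.09 TPM (-1.66 ± 0.32, adjusted p = 0.0016), a call that ended with the other scaling (adjusted p = 0.0644) and without the Taira stomach (adjusted p = 0.0594).

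Smad7 inhibits both branches of the pathway. The lungs had 101.14 and 30.7 TPM of smad7.L, above all others, which had 0.54 to 25.41 TPM (2.69 ± 0.52, adjusted p = 0.0014). Without the Taira lung the adjusted p was 0.126. For smad7.S the lungs had 43.61 and 19.9 TPM (2.24 ± 0.43, adjusted p = 0.00122) and the hearts 22.14 and 20.72 TPM (1.76 ± 0.43, adjusted p = 0.0066), which overlapped. In testis smad7.L was lower, at 2.43 and 0.54 TPM (-2.30 ± 0.52, adjusted p = 0.00231), and without the Ueno testis the adjusted p was 0.0829.

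All 5 tested inhibitory Smad models were higher in lung, where 8.4% of all models were. With the untested one they summed to 768.8 and 274.4 TPM there. As a share of the TPM of all Smads, inhibitory Smads made up 68.1% ± 13.4 (SD, n = 2) in lung and 56.8% ± 3.39 in heart. The share was 42.5% ± 12.5 in liver, 41.0% ± 0.28 in kidney, 40.6% ± 0.569 in spleen and 35.1% ± 8.71 in ovary. It was lowest in testis, at 7.01% ± 1.91, and in muscle, at 12.8%. The order among liver, kidney, spleen and ovary is within the spread between the 2 frogs. Lung and heart overlapped too, with the Ueno lung at 58.6% and the Taira heart at 59.2%. The Ueno skin, at 12.8%, lay between the muscles, at 13.4% and 12.1%.

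**Figure D4:**
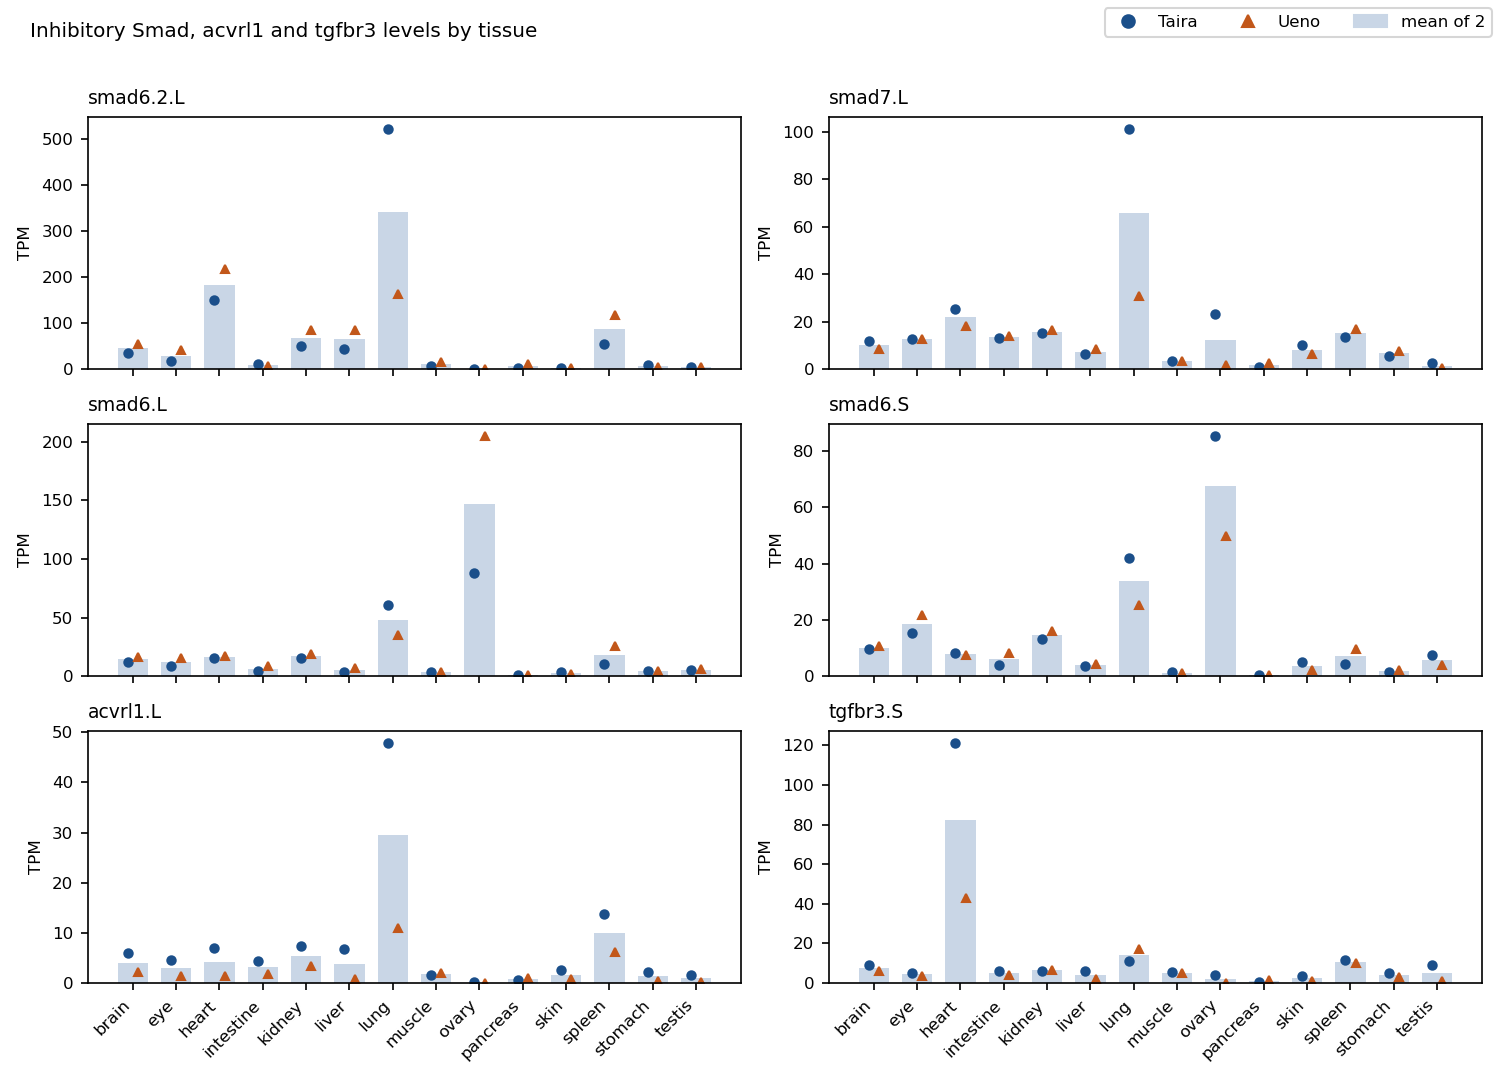
TPM of 4 inhibitory Smad genes, acvrl1.L and tgfbr3.S by tissue on a linear axis, with the Taira library as a circle, the Ueno library as a triangle and a bar at the mean of the 2. Smad6.2.L is lowest in ovary, at 0.67 and 0.72 TPM, where smad6.L is highest, at 88.4 and 205.15 TPM, and tgfbr3.S is highest in heart.

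The remaining 4 models share only the start of the symbol. The kinase gene bmp2k, whose product is named for its induction by BMP2, had its highest mean in spleen for both copies, at 38.93 and 6.57 TPM for bmp2k.L and 33 and 8.34 TPM for bmp2k.S. Neither was called higher in any tissue, and in each the Taira library was the high one. Both copies of tgfbrap1-like, named for a protein that binds TGF-beta receptors, were higher in ovary, with 27.58 and 5.9 TPM for tgfbrap1-like.L (1.64 ± 0.46, adjusted p = 0.00638). The call of tgfbrap1-like.S ended with the other scaling. For tgfbrap1-like.L the Ueno ovary lay within the range of the other libraries, which reached 9.79 TPM.

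The gonads were also compared with each other. Of 73 genes, 7 were higher in testis, where 14.7% of all models were, and 11 in ovary, where 12.1% were. With the replicate number as a block 14 were higher in testis (19.1% of all models), although the males and females are different animals. The median of testis minus ovary was 0.28 for the pathway genes and 0.15 for all models. Without the Ueno testis these medians were 0.43 and 0.48, and without the Taira ovary 0.47 for both. Without the Taira testis they were -0.03 and 0.0, and without the Ueno ovary 0.01 and 0.0. Of the genes higher in testis, the activin chain inhbb.L differed most, at a mean of 50.9 TPM in testis and 0.18 TPM in ovary (5.46 ± 0.35, adjusted p = 1.9e-09), followed by inhbb.S at 49.2 and 0.515 TPM (5.03 ± 0.37, adjusted p = 1.02e-08). Next came bmpr2.S (3.45 ± 0.69, adjusted p = 0.000849) and smad4.1.L, at 43.96 and 5.57 TPM (2.78 ± 0.41, adjusted p = 4.35e-05). The other genes higher in testis were bmp3.L, acvrl1.S and smad6.2.L, the last not with the other scaling (adjusted p = 0.12).

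Ovary was higher for bmp15.L, at 85.1 TPM against 0.265 TPM in testis (-6.11 ± 0.28, adjusted p = 1.65e-11), for smad6.L, at 147 against 5.62 TPM (-4.36 ± 0.48, adjusted p = 1.77e-06), for smad6.S (-3.35 ± 0.44, adjusted p = 1.23e-05) and for bmp2.L (-3.25 ± 0.48, adjusted p = 5.17e-05). The others were bmp7.2.S, bmp2.S, tgfbrap1-like.L, smad9.L and acvr2b.L, and, not with the other scaling, smad4.2.L and smad4.2.S.

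Each dataset had 1 female frog, so in comparing them the 13 tissues stood in as replicates. The limma p-values here measure how alike the tissues were, not the spread between frogs. Over the 13 female tissues, 2 pathway genes were higher in the Ueno frog, where 0.648% of all models were, and 4 were lower, where 9.93% were. With the other scaling 3 were higher, where 4.05% of all models were, and 2 lower, where 4.43% were. The common Smad copy smad4.1.S had a mean of 86.1 TPM in the Ueno libraries and 21.2 TPM in the Taira libraries and was higher in the Ueno library of 13 of 13 tissues (1.88 ± 0.22, adjusted p = 8.33e-05). In ovary it had 17.39 TPM in the Taira frog and 216.76 TPM in the other. The males, who are other animals, had 74.73 and 120.12 TPM. The BMP receptor Smad smad9.S was higher in the Ueno library of 12 of 13 tissues, at 16.4 against 6.80 TPM (1.13 ± 0.18, adjusted p = 0.000341).

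Lower in the Ueno frog were bmp2k.L, at 3.34 against 14.4 TPM and in 13 of 13 tissues (-1.65 ± 0.24, adjusted p = 0.000211), and bmp2k.S, at 3.45 against 10.04 TPM and in 13 of 13 (-1.28 ± 0.17, adjusted p = 0.000146). The latter fell short of the threshold with the other scaling, at -0.96. The ligand tgfb1.L was lower in 11 of 13 tissues, at 5.39 against 16.8 TPM (-1.34 ± 0.23, adjusted p = 0.000541). Its receptor tgfbr2.L was lower in 12 of 13 (-1.03 ± 0.20, adjusted p = 0.00101), though not with the other scaling.

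The L and S copies of a gene were compared within each library for 37 pairs. Averaged over all libraries, the L copy was higher in 5 pairs (15.6% of 7749 pairs tested in the whole genome) and the S copy in 4 (8.19%). By far the largest ratio was that of smad6.2, where the L copy exceeded the S copy by 4.42 ± 0.12 on the log2(TPM + 1) scale (adjusted p = 1.51e-16). The other 4 were all BMP ligands, bmp7.1 (1.54 ± 0.09), bmp6 (1.27 ± 0.09), bmp3 (1.0997 ± 0.07) and bmp5 (1.09 ± 0.09).

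The S copy was higher for tgfbr1 (-1.92 ± 0.09, adjusted p = 7.14e-13), smad4.1 (-1.65 ± 0.22), tgfbr3 (-1.38 ± 0.08) and smad4.2 (-1.30 ± 0.08). For smad4.1 the ratio differed between datasets, -0.86 in Taira and -2.44 in Ueno libraries, with smad4.1.S higher in all 28. For smad9 the mean ratio was 0.69 in Taira and -0.37 in Ueno libraries, with the L copy higher in 12 of 14 and 4 of 14. Reads that the copies share could have been divided between them in counting, which was not tested.

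In 14 pairs the ratio also differed between tissues, by a limma F test and a range of at least 2, against 59.1% of all pairs tested. The range was widest for smad6.2, from 8.14 in lung to 0.76 in ovary, since smad6.2.S was near 0 throughout and the ratio follows the L copy. The ratio of bmp15 likewise follows bmp15.L. In inhbc it ran from 4.42 in liver to -0.78 in ovary, and in bmp5 from 4.97 in heart to -0.21 in testis. A change of sign between 2 detected copies was seen, among others, in bmp7.1, with 3.33 in brain and -0.88 in heart. In smad9 the ratio was 2.71 in ovary and -1.08 in intestine, and in acvr1b 2.02 in testis and -1.27 in muscle. In bmpr2 it was 0.45 in spleen and -1.99 in testis, and in tgfbrap1-like 1.13 in intestine and -0.98 in testis. For tgfbr3 the ratio was -0.10 in spleen and -3.57 in heart.

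**Figure D5:**
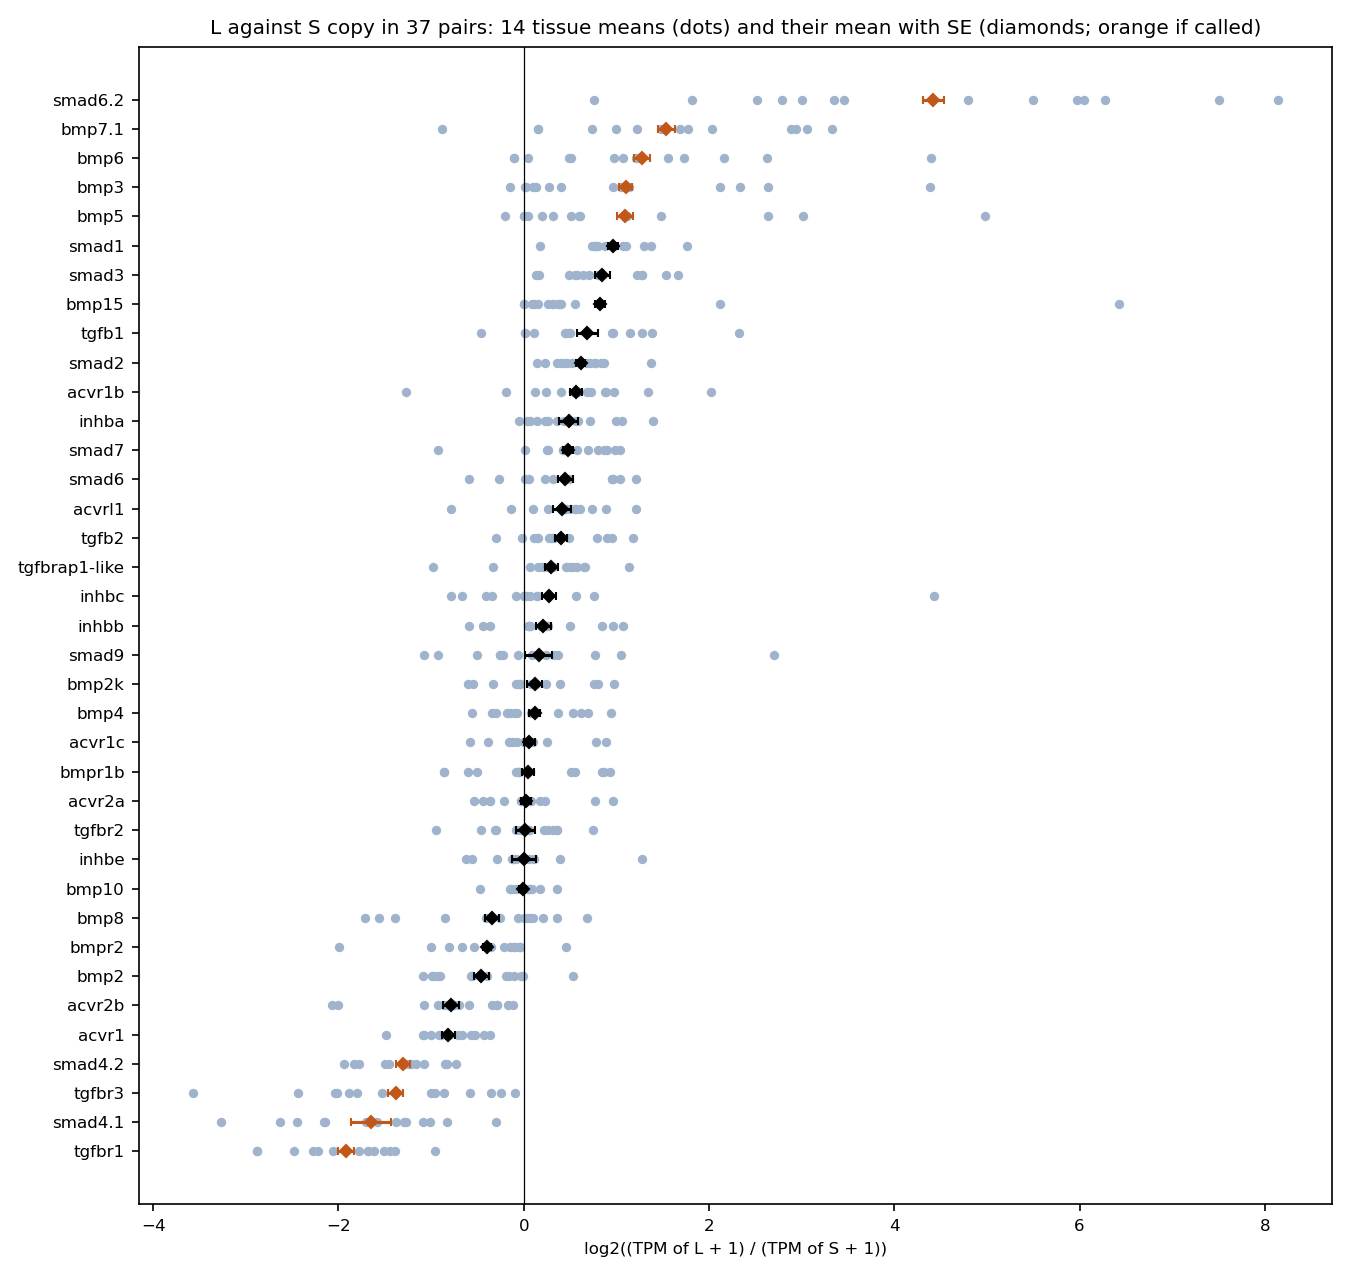
Ratio of L over S copy, as log2((TPM of L + 1) / (TPM of S + 1)), for the 37 gene pairs of the pathway, with the 14 tissue means as dots and their mean with its SE as a diamond, orange where called. Smad6.2 lies furthest to the L side, at a mean of 4.42, and tgfbr1 to the S side, at -1.92, and pairs such as bmp7.1 span both sides of 0.

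Some of these genes are next to each other in the RefSeq annotation, with 0 genes between them: acvrl1 and acvr1b, smad6 and smad3, and acvr1c and acvr1, each on both subgenomes. Across the 14 tissue means the log2 levels of smad6 and smad3 had a Pearson r of 0.72 for both the L and the S copies. The neighbours acvrl1 and acvr1b had 0.29 and 0.60, and acvr1c and acvr1 had 0.14 and 0.01. These values describe 14 points that share libraries, and no test was made.

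Of 103 models of other genes of the pathway (antagonists, other ligands, intracellular regulators and targets), 82 were tested. In lung 24 were higher (8.4% of all models) and 3 lower, and in eye 26 (17.7%) and 1. In brain 25 were higher (35.5%) and 2 lower, in ovary 21 (23.6%) and 20 (19.4%), and in pancreas none was higher and 44 lower (52.6%). The inhibin alpha chain inha.L, the partner of inhbb, had 288.12 and 1539.28 TPM in testis (8.30 ± 0.49, adjusted p = 3.65e-10) and 53.46 and 56.95 TPM in heart (4.45 ± 0.49, adjusted p = 3.48e-06). The testes thus had high levels of inha.L and both copies of inhbb, while the hearts had inha.L with inhbb.L at 0.26 and 0.23 TPM. The copies of another beta chain, inhba, summed to 4.36 TPM in the Taira heart and 0.52 TPM in the Ueno heart. Amh, the anti-Müllerian hormone, was higher in testis as amh.L, at 23.53 and 4.23 TPM (3.36 ± 0.31, adjusted p = 1.47e-07).

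In the ovaries foxh1.L, a partner of Smad2 in mesoderm induction, had 372.69 and 1117.83 TPM (8.87 ± 0.28, adjusted p = 8.24e-14). The Nodal antagonist dand5.L had 133.35 and 263.37 TPM (7.07 ± 0.19, adjusted p = 1.89e-14). In kidney foxh1.L had 19.68 and 22.67 TPM (3.62 ± 0.28, adjusted p = 1.55e-08), in the libraries that also held bmp15.L and the ovary markers named above.

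Targets and binding proteins of the pathway also differed by tissue. The skins had 57.68 and 32.88 TPM of msx2.L, a homeobox target of BMP (5.16 ± 0.20, adjusted p = 1.37e-12). The lungs had 118.09 and 39.99 TPM of ltbp1.L, which holds latent TGF-beta in the matrix (3.64 ± 0.47, adjusted p = 3.72e-05). The brains had 205.4 and 155.64 TPM of id4.S, a BMP-induced inhibitor of differentiation (3.63 ± 0.37, adjusted p = 2.35e-07). In spleen runx3.S, a transcription factor that works with Smads, had 41.05 and 22.2 TPM (3.91 ± 0.43, adjusted p = 2.45e-06).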

How the data were processed

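The authors deposited 1 table of TPM values for 28 libraries, and each library sums to about 1000000. Aligner and quantifier were BWA 0.7.10 and RSEM 1.2.19 per the submitters' processing notes. Libraries were poly-A selected, non-stranded and run on a HiSeq instrument per the labels' protocols. Since TPM keeps no read depth, the depth is unknown and neither a counting interval nor a count test was used. All columns were mapped by name.

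The filter asked for 1 TPM or more in at least 2 libraries, which 33317 of 45831 models passed; 5050 were 0 everywhere. The scale was log2(TPM + 1), on which differences of low genes come out smaller than their fold change. The model (limma 3.58.1, R 4.3.3) gave each tissue its own mean, with a trended variance and 14 residual degrees of freedom. Contrasts were a tissue minus the average of the 13 others, testis minus ovary, and the Ueno minus the Taira frog over 26 libraries with tissue as a block. P-values were adjusted by Benjamini-Hochberg over all models tested. L and S copies were paired by symbol (8017 pairs, 7749 tested), and their ratio was tested for its mean and, by an F test, between tissues. Tables and figures were made with Python 3.11.15, pandas 2.3.3, numpy 2.4.6 and matplotlib 3.10.9, and the fits were tested on simulated data.

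The same-numbered libraries of the 13 female tissues come from the same frog per the series design. Over 78 pairs of tissues their deviations from the tissue means had a median correlation of 0.425 (lowest -0.0138, highest 0.723, 74 over 0.1). The frog was left out of the tissue fit and used as a block as an alternative. The other settings tried were a pseudocount of 0.1 or 5, all models kept, a minimum of 5 TPM, median-of-ratios scaling, the gonads left out of the rest, the testis libraries added to the frog comparison, both copies of a pair past the minimum, levels of 0.5 and 5 TPM for breadth, and each library left out in turn.

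The rule for full statistics took, per tissue, up to 3 higher genes with both libraries above all others and the gene with the largest drop. It also took the 3 highest means per role and the largest differences of the other comparisons. Other genes are named by role, and many of their calls are given with difference and adjusted p too, outside this rule. The genes and lists were chosen with earlier results of these data known. Symbols of 61 of the 77 models matched a RefSeq symbol, which was used for neighbouring genes only. Sequences were not used here. One gene that the rule for other pathway genes would name is not reported here.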

Additional observations from a re-analysis of the deposited data

Results flagged for a closer look

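For 14 gene pairs the log2 ratio of the L over the S copy differed between the 14 tissues by the rule used above. It asked for an adjusted p under 0.05 by the limma F test on the 28 libraries and a range of at least 2. Pairs with a smaller range were left out whatever their F test, such as bmpr1b (range 1.80, adjusted p = 0.000335 by the limma F test). The range between the highest and the lowest tissue was 7.38 for smad6.2, 6.43 for bmp15, 5.21 for inhbc, 5.18 for bmp5, 4.53 for bmp3, 4.50 for bmp6 and 4.21 for bmp7.1. It was 3.79 for smad9, 3.47 for tgfbr3, 3.29 for acvr1b, 2.78 for tgfb1, 2.45 for bmpr2, 2.39 for bmp8 and 2.12 for tgfbrap1-like. In bmp15, bmp5 and smad6.2 the S copy was at or near 0 in every tissue, so these ranges follow the level of the L copy. The same rule, with the range, was met by 59.1% of the 7749 pairs tested.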

How the results depend on the processing

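Of 66 results for genes picked by the rule for full statistics, 52 kept direction and call under every alternative tried. None turned sign, and 14 lost the call under at least 1. The rule picked large differences in these same data, so that the calls were kept was partly set by the choice. Other calls given above are not in this count. Among them, both copies of acvrl1 in lung and of tgfb2 in heart lost the call without the Taira library of that tissue. Counts over the lists of other pathway genes moved by over 1.5 times in 150 cases, affecting 82 counts, and by less in 298. Counts moved by over 1.5 times as follows, and the cause was not tested. At 0.5 TPM 20 of the 77 genes reached the level in all tissues, a larger share than the 21.9% of all models. At 1 TPM the share of the pathway genes was the smaller one. At 5 TPM 1 did (1.30%, against 3.59% of all models) and 23 reached it nowhere (29.9%, against 43.5%). The share of all models called at the same setting stands in brackets. With a minimum of 5 TPM intestine (11.9%) and stomach (4.37%) had 1 higher each. With both copies past the minimum 3 pairs had the L copy higher. Without the gonads in the rest, heart had 1 lower (5.77%), intestine 1 lower (4.66%), muscle 0 higher (5.64%) and stomach 4 lower (8.55%). With no filter muscle had 0 higher (4.48%). With the replicate block muscle had 20 lower (30.5%), skin 5 higher (10.2%) and 7 lower (9.72%), and testis 14 higher than ovary (19.1%). No other count moved as far with the block. With median-of-ratios scaling brain had 2 higher (17.7%) and 1 lower (9.73%), eye 5 higher (13.1%), heart 1 lower (6.29%) and intestine 1 lower (5.29%). Kidney had 2 higher (7.13%), liver 3 lower (7.84%), muscle 6 higher (11.3%) and pancreas 2 higher (4.54%) and 2 lower (3.87%). Spleen had 6 higher (9.82%), stomach 1 lower (3.37%), testis 5 higher (13.6%) and 12 lower (12.7%), and the Ueno frog 2 lower (4.43%).

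With a pseudocount of 0.1 brain had 22 higher (39.9% of all models) and 1 lower (4.93%), eye 16 higher (22.8%), heart 4 lower (9.02%) and lung 2 lower (6.72%). Muscle had 1 higher (6.47%) and 23 lower (34.4%), and skin 6 higher (8.85%) and 7 lower (11.1%). Testis had 13 higher than ovary (21.5%) and the Ueno frog 11 lower (19.9%). In 9 pairs the L copy was higher, and 22 pairs differed between tissues. With a pseudocount of 5 brain had 9 higher (23.6%), eye 3 higher (9.47%), heart 0 lower (2.08%), and intestine 0 higher (7.36%) and 1 lower (1.48%). Kidney had 2 higher (7.94%), liver 3 lower (6.62%), lung 15 higher (5.36%), and muscle 0 higher (4.12%) and 2 lower (9.81%). Ovary had 11 higher (19.2%) and 2 lower (7.97%), pancreas 16 lower (29.3%), skin 2 lower (2.83%) and spleen 1 lower (2.51%). Stomach had 1 higher (2.17%) and 2 lower (3.5%), and testis 5 higher (12.8%) and 3 lower (3.17%). The Ueno frog had 1 higher (0.3%) and 1 lower (2.52%). In 1 pair the L copy and in 2 the S copy was higher, and 9 pairs differed between tissues. The shares of all pairs at these settings are not given here.

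Leaving out each library in turn gave these ranges, which are set out without the shares of all models and so have no background. Higher were 9 to 16 in brain, 7 to 14 in heart, 5 to 13 in kidney, 7 to 24 in lung, 0 to 3 in muscle, 11 to 23 in ovary, 3 to 13 in spleen, 1 to 3 in stomach and 3 to 12 in testis. Lower were 0 to 3 in heart and intestine, 3 to 12 in liver, 6 to 20 in muscle, 10 to 24 in ovary, 27 to 46 in pancreas, 1 to 5 in skin, 1 to 6 in spleen, 0 to 9 in stomach and 3 to 8 in testis. Between the gonads 5 to 16 were higher and 7 to 16 lower in testis.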
